A study of Mus musculus with 6 samples.

Results

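A set of 7 genes of leukocyte capture was followed in mouse kidney: the vascular adhesion molecules Vcam1, Icam1 and Icam2, the neural cell adhesion molecule Ncam1, the endothelial selectins Sele and Selp, and Selplg, the leukocyte ligand of P-selectin. They were chosen by gene symbol, and all 7 had a row among the 55450 genes of the count table. Kidney mRNA was sequenced from wild-type male C57BL/6J mice, bought at 7 weeks of age, with 3 mice in each of 2 groups. The day-0 group is the control and is labelled with 20% PEG. The day-21 group received adenine at 0.16 g/kg and potassium oxonate at 2.4 g/kg once daily by gavage until it was killed on day 21. Adenine gives rise to crystals that injure the kidney, and potassium oxonate blocks uricase so that uric acid builds up. The pair is used as a model of hyperuricemia-related CKD. That the controls are the day-0 mice is taken from the design text, and how long they had the vehicle is not given in the sources used here, so that treatment, vehicle and date of killing cannot be told apart. Whole kidney tissue was used, and only mRNA was measured in the data described here.

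Leukocytes leave the blood in steps. Selectins on activated endothelium and their sugar-bearing ligands let leukocytes roll along the vessel wall, and immunoglobulin-type adhesion molecules then hold them by binding leukocyte integrins. VCAM-1 binds the integrin alpha4beta1, also called VLA-4, and the ICAMs bind the beta2 integrins LFA-1 and Mac-1. In the kidney, VCAM-1 and ICAM-1 are also known from injured tubular epithelium, so whole-tissue mRNA does not say which cell made it. NCAM is a homophilic adhesion molecule of neural tissue, and in the developing kidney it marks nephrogenic mesenchyme.

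The libraries held 10963849 to 14256556 counts on day 0 and 12662200 to 14333311 on day 21. A floor of 3 counts was used for detection, which is 0.179 to 0.309 normalized CPM (counts scaled to a common, TMM-adjusted library total) and covers counting error only. Day-0 replicate 1 stood apart from the other day-0 mice in tubular injury markers, since 7 of 9 were highest in it among the day-0 mice. Krt20, an epithelial keratin, had 160 counts there against 3 and 5 in the other day-0 mice. Of the 7 genes described here, 5 were also highest in this mouse among the day-0 mice, so values without it are given beside the main fold changes, levels and ratios that it moved. Over 13143 genes, 72 were over 2-fold above and 96 over 2-fold below both other day-0 mice in replicate 1. In day-0 replicate 3 these numbers were 83 and 49, and in replicate 2 they were 21 and 44. Kidney markers were strongly expressed in every library, with summed levels of 10 tubule and podocyte markers between 14700 and 16470 normalized CPM on day 0 and between 5780 and 6070 on day 21, when 9 of the 10 were called lower.

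Between the groups, Vcam1, Ncam1, Selplg, Icam1 and Selp were higher on day 21, Icam2 did not pass the test, and Sele had too few counts to be tested. Of the 6 genes tested, 5 were called higher and 0 lower, with a call needing an adjusted p below 0.05 together with a change of over 1.5-fold. Calls were common in this comparison: of all 16592 genes tested, 35.1% were called, 19.6% higher and 15.5% lower. The groups did not overlap for 5 of the 6 genes tested, and for 57.1% of all genes tested. The median log2 fold change was 2.33 over the 6 genes and 0.03 over all genes tested. Selp passed the filter on low counts only through its day-21 mice, so these counts describe the genes and support no further statement.

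**Figure D1:**
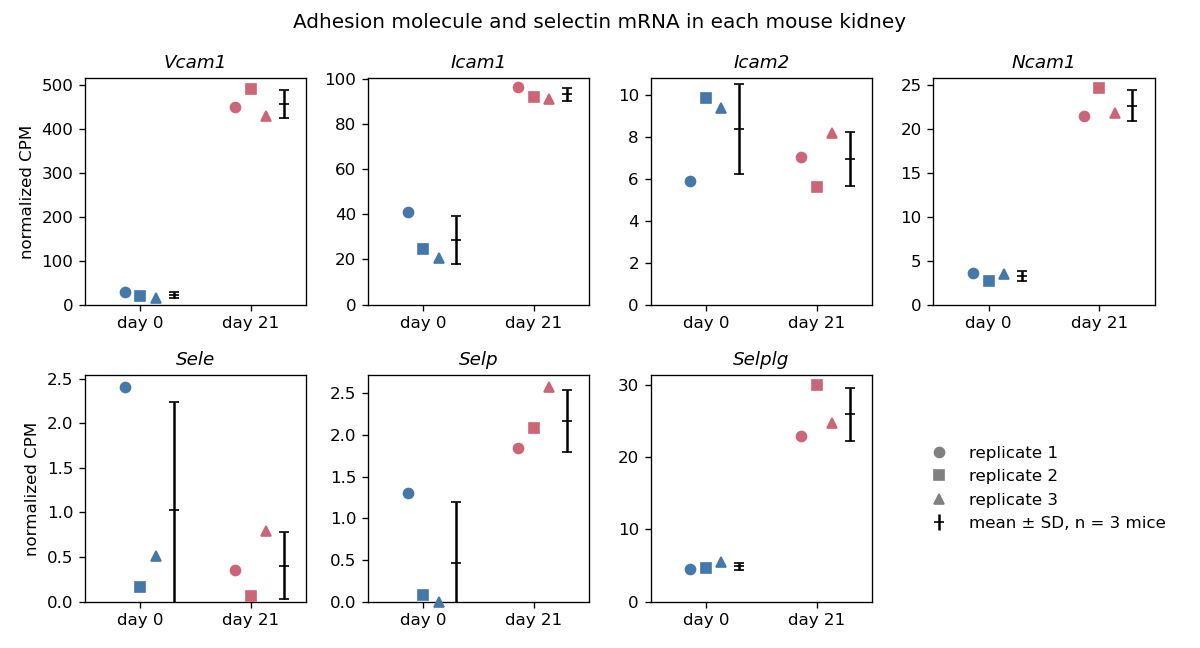
Normalized CPM of the 7 genes in each mouse, with linear axes from 0 that differ between panels, 1 symbol per replicate, and black bars giving the mean ± SD of 3 mice (SD bars are cut at 0 for Sele and Selp). The day-21 mice lie above all day-0 mice for Vcam1 (428.4 to 490.9 against 16.0 to 29.2), Icam1, Ncam1, Selp and Selplg, whereas the groups overlap for Icam2 and Sele.

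Vcam1 (ENSMUSG00000027962.14, GRCm38 chr3:116109949-116129688, minus strand) encodes the endothelial and epithelial ligand of VLA-4. Its levels were 29.2, 18.6 and 16.0 normalized CPM on day 0, against 450.3, 490.9 and 428.4 on day 21. Each day-21 mouse was far above each day-0 mouse, and the spread between mice of a group was small against the gap. The means were 21.3 ± 6.99 and 456.5 ± 31.7 (SD, n = 3 each), a 21.5-fold difference (95% confidence interval 15.5 to 29.9). The log2 fold change of 4.43 (SE 0.21, adjusted p = 9.0e-07, the quasi-likelihood test of edgeR, Benjamini-Hochberg adjusted) ranked 115 among the 16592 genes tested, counted from the highest. Without day-0 replicate 1, the highest of its group, the log2 fold change was 4.70, and without replicate 3, the lowest, it was 4.25. In bulk tissue, more cells of a type and more mRNA per cell cannot be told apart, for this gene and for those below.

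Icam1 (ENSMUSG00000037405.8, chr9:21015985-21028817, plus strand), whose product is bound by LFA-1 and Mac-1 on leukocytes, also rose. Its levels were 40.8, 24.4 and 20.4 normalized CPM on day 0 and 96.2, 92.0 and 90.8 on day 21. The day-21 mice were nearly alike, and day-0 replicate 1 was again the highest of its group but below every day-21 mouse. The means of 28.5 ± 10.8 and 93.0 ± 2.83 (SD, n = 3 each) differed 3.26-fold (95% confidence interval 2.35 to 4.54). The log2 fold change was 1.71 (SE 0.21, adjusted p = 1.2e-04 by the quasi-likelihood test of edgeR, Benjamini-Hochberg adjusted) and 2.03 without day-0 replicate 1.

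Icam2 (ENSMUSG00000001029.15, chr11:106377656-106388075, minus strand) encodes a second LFA-1 ligand that resting endothelium carries constitutively. Its levels were 5.92, 9.89 and 9.38 normalized CPM on day 0 and 7.07, 5.61 and 8.21 on day 21. The groups overlapped, with means of 8.40 ± 2.16 and 6.96 ± 1.30 (SD, n = 3 each). The log2 fold change was -0.27 (95% confidence interval -0.83 to 0.28, adjusted p = 0.398 by the quasi-likelihood test of edgeR, Benjamini-Hochberg adjusted), and -0.49 without day-0 replicate 1. Its sign changed to 0.12 when libraries were scaled by their total counts alone, a scaling that moves the median of all genes to 0.42. The interval leaves room for a fold between 0.564 and 1.21.

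Whether the vascular molecules moved by different amounts was tested on ratios within each mouse, which are free of library scaling. The log2 ratio of Vcam1 to Icam1 counts was -0.48, -0.39 and -0.35 on day 0 and 2.23, 2.42 and 2.24 on day 21. Vcam1 counts were below Icam1 counts in each day-0 mouse and above them in each day-21 mouse, a difference of 2.70 on the log2 scale. The log2 ratio of Icam1 to Icam2 was 2.78, 1.30 and 1.12 on day 0 and 3.76, 4.03 and 3.46 on day 21. This difference was 2.02, and 2.54 without day-0 replicate 1, whose ratio was the highest of its group. Each of the 3 ratios tested (the third, Selp to Sele, is given with the selectins) gave p = 0.1 in a two-sided exact permutation test, and 0.1 after Benjamini-Hochberg adjustment over the 3 pairs, which is the smallest p that 3 mice against 3 can give.

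Several of these genes share exon bases with an annotated gene on the opposite strand, and the strand setting of the counting is not given in the sources used here, so reads of a gene and its antisense partner cannot be told apart. For Vcam1 the partner is Gm43109, which shares 61 bases, or 0.688% of the exon bases of Vcam1. Gm43109 had 38, 14 and 23 counts on day 0, against 1101, 1037 and 1019 on day 21 (log2 fold change 4.81, adjusted p = 2.0e-06 by edgeR), so it rose along with Vcam1. For Icam1, 11.7% of exon bases lie under Gm47079, which had 107, 52 and 44 counts on day 0, against 308, 422 and 293 on day 21, and for Ncam1, 4.81% lie under Gm11149, which had 5, 1 and 2 counts and then 60, 87 and 67. Each partner of these 3 genes was called higher, with log2 fold changes of 1.74 for Gm47079 and 4.10 for Gm11149. Selp shares 14.1% of its exon bases with Gm16548 and Gm16587, of which Gm16548 was not called (log2 fold change 0.59, adjusted p = 0.283 by edgeR) and Gm16587, with at most 8 counts in a mouse, was not tested. Icam2, Sele and Selplg share none.

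Ncam1 (ENSMUSG00000039542.16, chr9:49502136-49798925, minus strand) had 3.61, 2.64 and 3.50 normalized CPM on day 0 and 21.5, 24.7 and 21.8 on day 21. The day-0 mice were low and alike, and the day-21 mice were several times higher. The means of 3.25 ± 0.533 and 22.7 ± 1.77 (SD, n = 3 each) differed 7.00-fold (95% confidence interval 5.26 to 9.32). The log2 fold change was 2.81 (SE 0.19, adjusted p = 2.8e-06 by the quasi-likelihood test of edgeR, Benjamini-Hochberg adjusted), rank 499 of 16592. Because nerve carries NCAM, markers of Schwann cells and neurons were read in the same mice. Their defining genes Sox10, S100b and Cdh19 had between 0 and 8 counts in each mouse of either group, whereas Mbp (log2 fold change 1.09) and Tubb3 (2.09) were the 2 called higher of 4 tested. The summed level of the 8 markers was 13.0 to 22.9 normalized CPM on day 0 and 36.2 to 38.1 on day 21. Most of it in each mouse was Mbp, at 13.8 ± 3.84 normalized CPM and then 29.4 ± 1.91 (SD, n = 3 each). A ratio to this sum is thus largely a ratio to Mbp. For this ratio and the later ratios to marker sums, 0.5 was added to the count of the gene. The log2 ratio of Ncam1 to this sum was -1.83, -2.75 and -2.69 on day 0 and -0.83, -0.60 and -0.73 on day 21, with no overlap between the groups.

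NCAM acts differently once polysialic acid is added to it, and both polysialyltransferase genes moved with it. St8sia2 had 1, 4 and 4 counts on day 0, against 20, 44 and 39 on day 21 (log2 fold change 2.89, SE 0.53). St8sia4 had 29, 16 and 34 counts and then 174, 212 and 169 (log2 fold change 2.21, SE 0.31). These were the 2 genes called higher among 5 tested in a list of polysialylation enzymes and NCAM partners. Of all genes, 19.6% were called higher and 15.5% lower. The median log2 fold change of that list was 0.50. The GDNF co-receptor gene Gfra1 was the 1 of the list called lower, with a log2 fold change of -0.86. Fgfr1, a receptor that NCAM can engage, did not pass (0.16), nor did the related adhesion molecule L1cam (0.50), and Ncam2, the paralog of Ncam1, was not tested, having 7, 13 and 9 counts in the control mice and 1, 0 and 8 on day 21.

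Sele and Selp lie close together on chromosome 1, both on the plus strand. E-selectin is made by activated endothelium, and P-selectin is stored in endothelial granules and in platelets. To show what lies ahead of these genes, and ahead of Icam1, the 250 bases before the RefSeq start are printed from RefSeq (GRCm38.p6, plus strand) for the 3 of 7 genes that matched the promoter table. Vcam1, Icam2, Ncam1 and Selplg had no entry. The windows were searched on both strands for TATAAA, the TATA box, TGANTCA, the AP-1 motif, TTCNNNGAA, the STAT motif, and the NF-kappaB motif. Capitals mark the matches.
Sele, chr1:164047984-164048233: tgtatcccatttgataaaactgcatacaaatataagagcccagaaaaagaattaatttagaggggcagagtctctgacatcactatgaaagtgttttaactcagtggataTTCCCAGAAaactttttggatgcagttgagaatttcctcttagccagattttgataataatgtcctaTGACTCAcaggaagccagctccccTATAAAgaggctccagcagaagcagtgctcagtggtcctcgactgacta
Selp, chr1:164115014-164115263: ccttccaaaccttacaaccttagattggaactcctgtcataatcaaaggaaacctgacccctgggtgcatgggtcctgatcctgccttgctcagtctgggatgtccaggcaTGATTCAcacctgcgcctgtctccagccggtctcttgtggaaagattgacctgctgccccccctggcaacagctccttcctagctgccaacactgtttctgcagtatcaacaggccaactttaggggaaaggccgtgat
Icam1, chr9:21015690-21015939: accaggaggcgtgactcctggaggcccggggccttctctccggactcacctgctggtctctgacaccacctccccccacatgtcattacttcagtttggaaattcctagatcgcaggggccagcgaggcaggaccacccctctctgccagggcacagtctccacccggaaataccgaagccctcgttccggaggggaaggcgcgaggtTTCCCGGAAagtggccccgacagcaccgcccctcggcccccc

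Reading toward the start, Sele holds the STAT motif 140 to 132 bases before it, the AP-1 motif 73 to 67 bases before it and the TATA box 49 to 44 bases before it. Selp holds the AP-1 motif 139 to 133 bases before the start, and Icam1 the STAT motif 42 to 34 bases before it. No matches overlapped. The TATA box of Sele was on the strand of the gene. TGANTCA and TTCNNNGAA read the same on both strands, so their matches have no orientation. The NF-kappaB motif was searched in a strict form of 10 letters, with GGG at one end and CC at the other. This form is not in these windows, and looser forms were not searched. Among 32851 promoter windows of the same length, 12.4% held TATAAA, 6.75% TGANTCA, 7.02% TTCNNNGAA and 3.9% the NF-kappaB motif. A match describes letters only and says nothing of binding.

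Sele (ENSMUSG00000026582.6, chr1:164048234-164057677) was near the floor in all but 2 mice. It had 24, 2 and 5 counts on day 0, against 5, 1 and 13 on day 21, which are 2.41, 0.165 and 0.515 against 0.353, 0.0597 and 0.796 normalized CPM. The highest mouse was day-0 replicate 1, and without it the remaining mice of both groups still overlapped. The gene did not pass the filter on low counts, and the two-sided exact permutation test of its normalized CPM gave p = 0.6. A difference in Sele was thus not detectable at this depth.

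Selp (ENSMUSG00000026580.16, chr1:164115264-164150026) had 13, 1 and 0 counts on day 0, against 26, 35 and 42 on day 21. In normalized CPM these are 1.30, 0.0824 and 0 against 1.84, 2.09 and 2.57. All day-21 mice were above day-0 replicate 1, and the other day-0 mice were under the floor. The log2 fold change was 2.25 (SE 0.80, 95% confidence interval 0.48 to 4.03, adjusted p = 0.0412 by the quasi-likelihood test of edgeR, Benjamini-Hochberg adjusted). Without day-0 replicate 1 the call held (adjusted p = 5.0e-04 by edgeR), and the 103 counts of the day-21 mice stood against 1 count, a ratio of 47.6 with an exact 95% counting interval of 8.35 to 1898 that leaves out the spread between mice. The call was lost on leaving out any other mouse: the adjusted p by edgeR was 0.136 without day-0 replicate 2, 0.0822 without day-0 replicate 3, and 0.0716, 0.0824 and 0.112 without day-21 replicates 1, 2 and 3. Of the 5 genes called, Selp was the only gene whose call was lost on leaving out a mouse.

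The 2 endothelial selectins were also set against each other within each mouse, although several of these counts lie at or under the floor, so that the ratio depends on the count added. The log2 ratio of Selp to Sele counts, each raised by 0.5, was -0.86, -0.74 and -3.46 on day 0 and 2.27, 4.56 and 1.65 on day 21. Sele counts exceeded Selp counts in each day-0 mouse and fell below them in each day-21 mouse. The difference was 4.51 on the log2 scale, 4.93 without day-0 replicate 1 and 3.40 when 2 counts were added in place of 0.5, with p = 0.1 in the exact permutation test, the smallest possible.

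P-selectin is also made by platelets, so platelet markers were read beside Selp. Of these markers, Gp9 and Gp5 had between 0 and 3 counts in each mouse, while Gp1ba ranged from 0 to 12. These 3 genes were not tested. The platelet chemokine gene Pf4 was the 1 gene called higher of 3 tested (log2 fold change 1.72). Ppbp, whose counts ranged from 4 to 25, was tested but not called (log2 fold change 0.27, adjusted p = 0.714 by edgeR). The summed level of 6 platelet markers was 8.45 to 9.48 normalized CPM on day 0 and 7.66 to 9.40 on day 21. Most of it on day 0 was Itga2b, the integrin αIIb gene, which was at 6.28 ± 1.03 normalized CPM and then 4.04 ± 1.41 (SD, n = 3 each) and was not called (log2 fold change -0.64, adjusted p = 0.102 by edgeR), while Pf4 went from 0.927 to 3.11. Relative to the summed level of the 6 markers, Selp had log2 ratios of -2.67, -6.26 and -7.36 on day 0 and -2.33, -1.95 and -1.56 on day 21. The groups were parted, but day-0 replicate 1 lay next to the day-21 mice. Day-0 replicates 2 and 3 had 1 and 0 Selp counts, so their ratios depend on the 0.5 added to the count.

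Selplg (ENSMUSG00000048163.13, chr5:113818536-113832644, minus strand) encodes PSGL-1, the leukocyte mucin that binds P-selectin and, when suitably modified, the other selectins. Its levels were 4.51, 4.70 and 5.46 normalized CPM on day 0 and 23.0, 30.1 and 24.8 on day 21. Mice of a group were alike, and day-0 replicate 1 was the lowest of its group here. The means of 4.89 ± 0.503 and 25.9 ± 3.68 (SD, n = 3 each) differed 5.31-fold (95% confidence interval 4.06 to 6.95). The log2 fold change was 2.41 (SE 0.17, adjusted p = 4.5e-06 by the quasi-likelihood test of edgeR, Benjamini-Hochberg adjusted) and 2.34 without day-0 replicate 1.

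Most leukocyte markers rose as well. Of 15 tested, 12 were called higher (median log2 fold change 2.37), among them Ptprc, the pan-leukocyte antigen CD45 (log2 fold change 2.52), the macrophage marker Adgre1 (2.81) and lysozyme, Lyz2 (3.31). The neutrophil calprotectin genes S100a8 (-1.97) and S100a9 (-1.99) were the 2 called lower, and the B cell marker Ms4a1, the natural killer cell marker Ncr1 and the neutrophil marker Ly6g had between 0 and 4 counts in each mouse. The summed level of the 20 markers was 162.8 to 206.7 normalized CPM on day 0 and 684.4 to 895.5 on day 21. Relative to this sum, Selplg gave log2 ratios of -5.18, -5.45 and -4.89 on day 0 and -4.90, -4.90 and -4.98 on day 21. These ratios overlapped between the groups, with a difference of 0.25.

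Endothelial markers were mostly not called, with a median log2 fold change of -0.32. Of 12 tested, Kdr, Flt1 and Ptprb were called lower (log2 fold changes -1.33, -1.22 and -0.99) and Vwf, which endothelial cells store together with P-selectin, was called higher (0.81). Their summed level was 878.7 to 1038 normalized CPM on day 0 and 515.9 to 814.3 on day 21, with day-21 replicate 2 the lowest. Icam2 relative to this sum overlapped between the groups, with log2 ratios of -7.25 to -6.47 on day 0 and -6.84 to -6.52 on day 21. For Vcam1 the same ratio did not overlap, at -4.96, -5.56 and -6.02 on day 0 and -0.86, -0.07 and -0.87 on day 21. Tubular injury markers also rose, with 9 of 9 called higher and a median log2 fold change of 4.08. Their summed level was 989.3 to 2353 normalized CPM on day 0 and 23750 to 28100 on day 21. Most of this sum in each mouse was Spp1, at 959.4 ± 578.9 normalized CPM and then 18780 ± 2112 (SD, n = 3 each). Fibroblast and mural markers rose too, with 8 of 8 called higher (median log2 fold change 1.22). The part of these cell types in the changes of Vcam1, Icam1, Ncam1 and Selp was not tested.

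**Figure D2:**
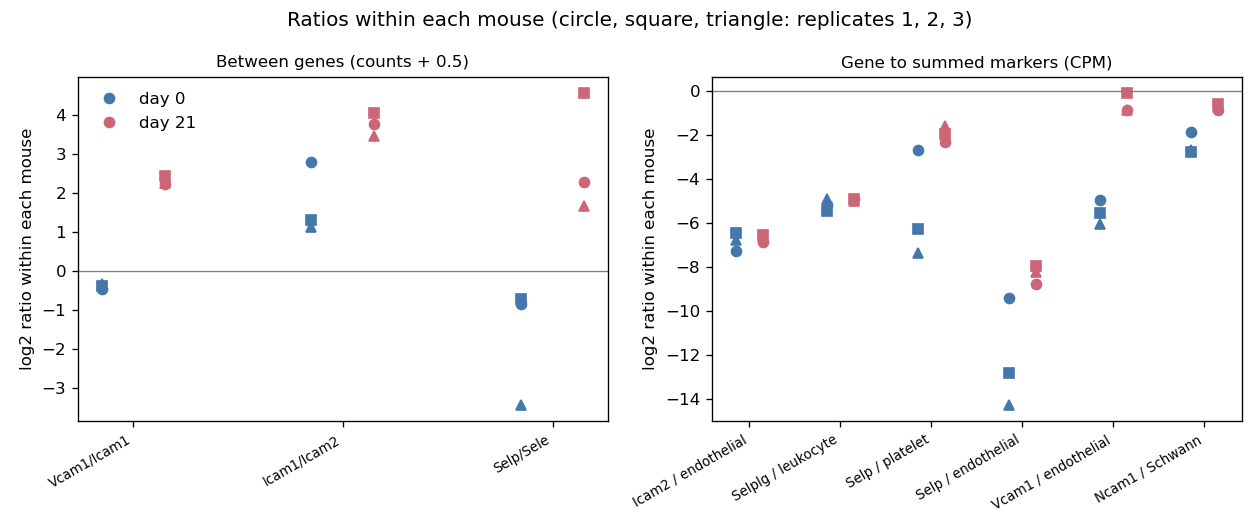
Left, log2 ratio of counts (each raised by 0.5) between pairs of the genes within each mouse. Right, log2 ratio of the normalized CPM of a gene (its count raised by 0.5) to the summed normalized CPM of a marker list. Day 0 is in blue and day 21 in red, with a symbol per replicate. The groups are parted in all 3 pairs on the left, and on the right they overlap for Icam2 to endothelial markers and Selplg to leukocyte markers, where the differences are 0.19 and 0.25.

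Because genes differ in length, levels were compared between genes as normalized CPM per kb of the longest coding transcript. On day 0 the level per kb was highest for Icam1 (11.3 ± 4.27, SD, n = 3), followed by Icam2 (6.55 ± 1.69), Vcam1 (6.13 ± 2.01), Selplg (2.64 ± 0.271), Ncam1 (0.495 ± 0.0813), Sele (0.353 ± 0.414) and Selp (0.134 ± 0.212). The ranges of Icam2 and Vcam1 overlapped, as did those of Ncam1 and Sele and of Sele and Selp, so these neighbours were not separated. The overlaps rested on day-0 replicate 1. Without it the order of the means was the same, no neighbours overlapped between the 2 other day-0 mice, and the mean was 0.117 CPM per kb for Sele, 0.0120 for Selp, 4.99 for Vcam1 and 8.84 for Icam1. On day 21 Vcam1 was highest (131.6 ± 9.14), then Icam1 (36.7 ± 1.12), Selplg (14.0 ± 1.99), Icam2 (5.43 ± 1.02), Ncam1 (3.45 ± 0.269), Selp (0.630 ± 0.109) and Sele (0.138 ± 0.127). No neighbours overlapped on day 21. The order of the means was the same with the length of all annotated exons, under which Icam1 and Icam2 also overlapped on day 0, with and without day-0 replicate 1.

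As a share of the summed level per kb of the 7 genes, Vcam1 rose from between 19.5% and 25.3% on day 0 to between 67.3% and 69.8% on day 21. Icam1 went from between 34.1% and 48.3% to between 17.9% and 20.0%, although its own level rose. Icam2 went from between 13.9% and 31.0% to between 2.16% and 3.49%. Selplg was at 7.30% to 12.5% and then 6.53% to 7.99%, and Ncam1 at 1.56% to 2.26% and then 1.73% to 1.86%. The shares of Selplg and those of Ncam1 overlapped between the groups. Sele reached at most 2.48% and Selp at most 1.14%, both in day-0 replicate 1, and on day 21 neither passed 0.408% in any mouse. Over the length of all annotated exons these highest shares were 4.50% for Sele and 1.61% for Selp, and on day 21 neither passed 0.706%.

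**Figure D3:**
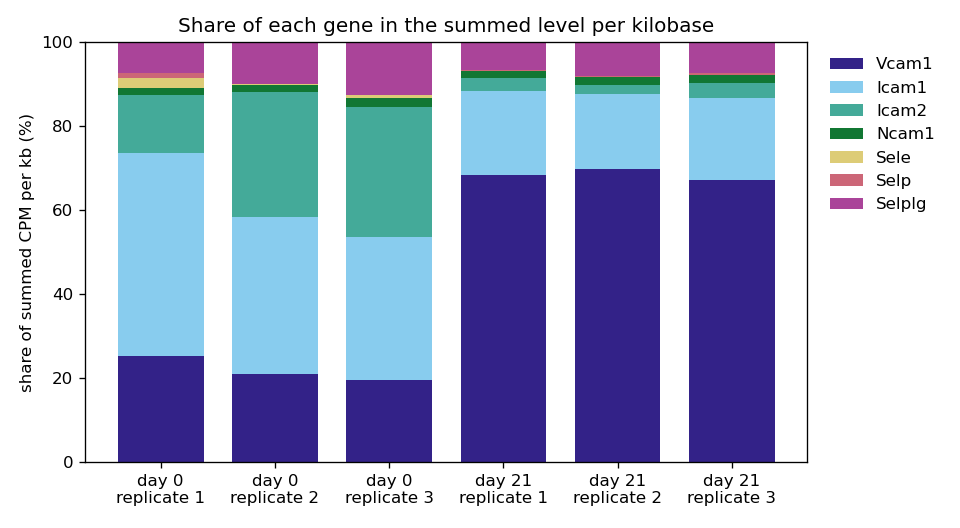
Stacked bars of the share (%) of each gene in the summed normalized CPM per kb of the 7 genes, 1 bar per mouse. Vcam1 fills 67.3% to 69.8% of each day-21 bar against 19.5% to 25.3% of each day-0 bar.

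The integrins that bind these molecules were read next. All 8 integrin genes tested were called higher, with a median log2 fold change of 1.53, against 19.6% of all genes. Itga4 and Itgb1, the subunits of VLA-4, had log2 fold changes of 1.5 (SE 0.21) and 0.65 (SE 0.13), Itgb7, which also pairs with Itga4, 0.95 (SE 0.26), and Itga9, another VCAM-1 binder, 1.16 (SE 0.18). Among the ICAM-binding integrins, the shared beta2 chain Itgb2 had 2.38 (SE 0.17), the LFA-1 chain Itgal 1.55 (SE 0.17), the Mac-1 chain Itgam 4.25 (SE 0.42) and Itgax 2.83 (SE 0.25). Itgam had 1, 10 and 5 counts on day 0, against 116, 166 and 177 on day 21, and passed the filter on low counts only through its day-21 mice. The count of calls and the median thus describe these genes and support no further statement. Itgam shares 68.7% of its exon bases with Gm49368, so its counts may have been split in the counting. Itgad, with 1 count or none in each mouse, was not tested.

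**Figure D4:**
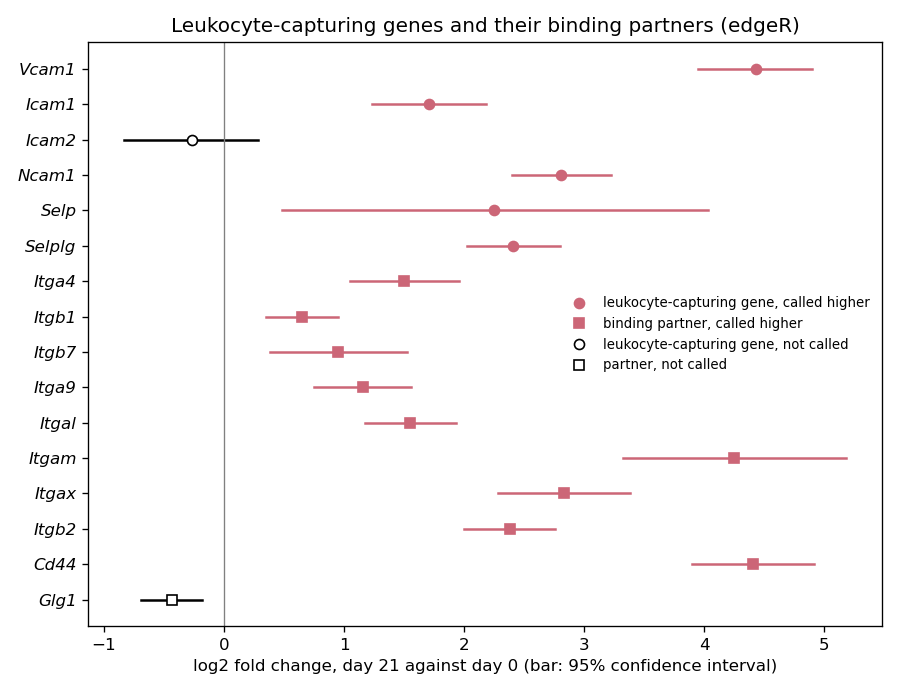
Log2 fold change of day 21 against day 0 with its 95% confidence interval (edgeR) for the 6 genes tested (circles), the integrins, and the selectin-binding genes Cd44 and Glg1 (squares), with open symbols for genes not called. Vcam1 (4.43), Cd44 (4.41) and Itgam (4.25) are farthest to the right, and the interval of Icam2 includes 0.

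Of the other selectin genes and selectin ligands, 3 of 6 tested were called higher and 1 lower, against 19.6% and 15.5% of all genes. Their median log2 fold change was 0.09. Cd44, a hyaluronan receptor that can also serve as an E-selectin ligand, had 32, 45 and 23 counts on day 0, against 810, 1426 and 929 on day 21 (log2 fold change 4.41, SE 0.23). Cd24a, a P-selectin ligand also known from regenerating tubules, was higher by 1.60 and Cd34 by 0.62, while the podocyte sialomucin Podxl was lower (-0.71). Glg1, the E-selectin ligand ESL-1, did not reach the fold (log2 fold change -0.43, adjusted p = 0.0113 by edgeR). Madcam1, an addressin of mucosal vessels, had 0, 1 and 0 counts on day 0, against 3, 14 and 8 on day 21 and was not tested, and Glycam1 had no count.

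Among the enzymes that build selectin-binding sugars and sulfate groups, 3 of 11 tested were called higher and 1 lower. Of all genes, 19.6% were called higher and 15.5% lower. The median log2 fold change of these enzymes was -0.23. The enzyme genes called higher were the fucosyltransferase Fut4 (1.49), the tyrosine sulfotransferase Tpst1 (1.34), which modifies PSGL-1, and the sialyltransferase St3gal4 (0.61). Gcnt1, which branches the O-glycans of PSGL-1, was lower (-0.97, SE 0.14). Fut7, the leukocyte fucosyltransferase, had 0, 0 and 1 counts on day 0, against 6, 4 and 3 on day 21.

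Of the genes of the step that follows, passage through the vessel wall, 11 were tested (median log2 fold change 0.40). Among them 4 were called higher and 0 lower, against 19.6% and 15.5% of all genes. Those called were Cd6, a surface molecule of T cells that binds ALCAM (3.54), Sirpa (1.07), its ligand Cd47 (0.83) and Mcam (0.70). Cd6 had only 5, 4 and 0 counts on day 0. The endothelial junction genes Pecam1 (-0.26), Esam (-0.39) and Jam3 (-0.28) did not pass. Jam2 had a log2 fold change of 0.61 (adjusted p = 0.0715 by edgeR), and F11r, the JAM-A gene, passed the p but not the fold (0.40, adjusted p = 0.0168 by edgeR). Of the genes that anchor adhesion molecules to the cytoskeleton or shed them from the surface, 4 of 8 were called higher and 1 lower (median 0.52). The shares of all genes were again 19.6% and 15.5%. Msn, moesin, which anchors ICAMs and PSGL-1, was higher by 1.27, the sheddase genes Adam8 by 3.17 and Adam10 by 0.61, and the sheddase cofactor gene Rhbdf2 by 1.10, while Timp3, an inhibitor of sheddases, was lower (-1.11). Adam17, the main sheddase of VCAM-1, did not reach the fold (0.42). The other ICAM genes next to Icam1 on chromosome 9, Icam4 and Icam5, had between 0 and 5 counts in each mouse.

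Cytokines and NF-kappaB components are known to induce VCAM-1, ICAM-1 and the selectins. Of 16 tested cytokine, receptor and NF-kappaB pathway genes, among them the inhibitors Nfkbia and Tnfaip3, 12 were called higher and 0 lower. Of all genes, 19.6% were called higher and 15.5% lower. The median log2 fold change of the 16 was 1.25, the same with Tnf at its bound. Tnf had no count in the day-0 mice and 27, 29 and 18 on day 21, at least 5.53-fold higher when set against 3 counts per library. Ltb, the lymphotoxin beta gene, was higher by 3.29, Il1b by 1.29 and the TNF receptor genes Tnfrsf1b and Tnfrsf1a by 2.29 and 0.64. Of the NF-kappaB subunits, Relb (1.83), Nfkb2 (1.34), Nfkb1 (0.91) and Rela (0.64) were called higher and Rel was not (0.66, adjusted p = 0.0628 by edgeR). The feedback inhibitor Tnfaip3 was higher by 1.65, and Nfkbia was not called (0.40). In day-0 replicate 1, 10 of the 16 were the highest of their group. Il4 did not pass, and Il6, Lta, Ifng, Il1a and Il13 had too few counts.

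Over all 8 pathway lists, 36 genes were called higher and 4 lower, the numbers tested being given with the single lists. Of all genes tested, 19.6% were called higher and 15.5% lower. Without day-0 replicate 1 the counts were 35 and 5. The calls of 11 list genes were lost on leaving out some mouse, with the log2 fold change keeping its sign in each case. Cd34 lost its call without day-0 replicates 1 or 2 or day-21 replicates 1 or 3 (0.48 to 0.58), Mcam without day-0 replicates 2 or 3 or day-21 replicates 1 or 3 (0.47 to 0.75), and Tnfrsf1a without the same 4 mice as Mcam (0.44 to 0.63). St3gal4 lost it without day-0 replicate 1 or day-21 replicates 1 or 3 (0.56 to 0.58), Gfra1 without day-0 replicate 3 or day-21 replicates 2 or 3 (-0.86 to -0.77), and Rela without day-0 replicate 3 (0.53) or day-21 replicate 2 (0.55). Itgb1 (0.54), Podxl (-0.53) and Adam10 (0.51) lost it without day-0 replicate 2 alone, and Itgb7 (0.78) and Il1b (1.07) without day-21 replicate 2 alone.

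**Figure D5:**
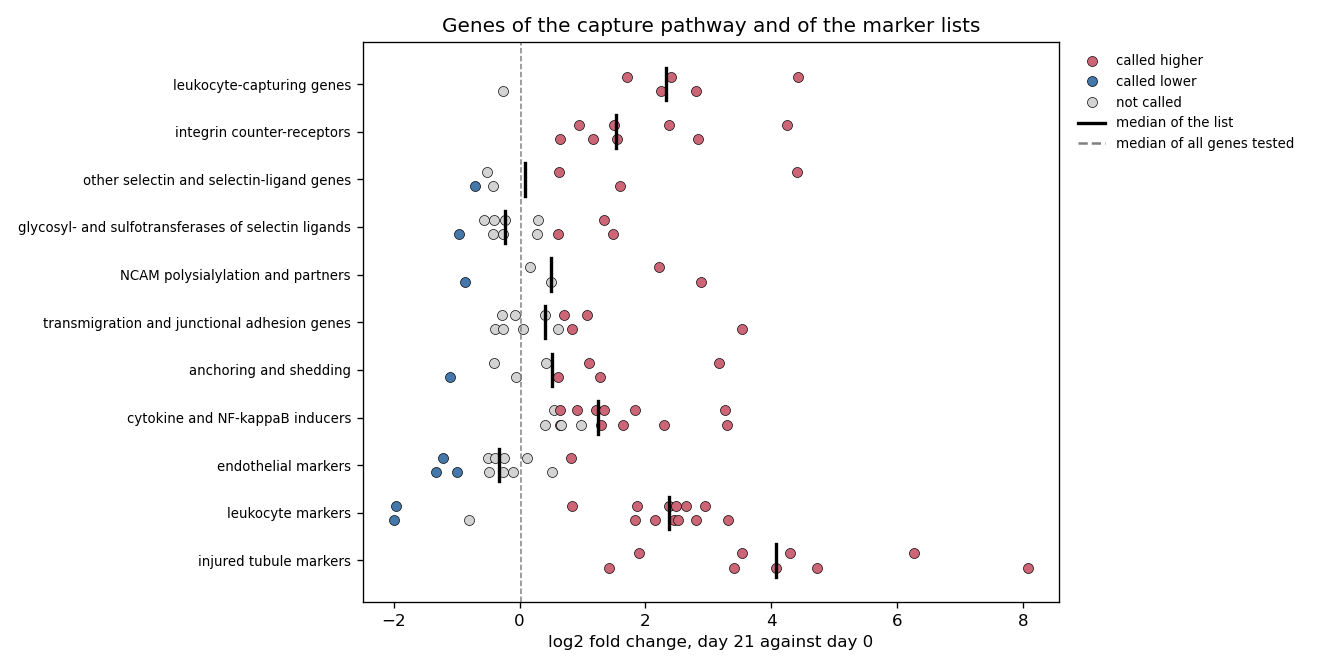
Log2 fold change of each gene tested, by list, with genes called higher in red, lower in blue and not called in grey, Tnf left out because it had no count on day 0, a black bar at the median of each list and a dashed line at the median of all genes tested (0.03). The medians of the 6 genes (2.33), the leukocyte markers (2.37) and the injured tubule markers (4.08) lie far to the right of the line, and that of the endothelial markers (-0.32) lies to the left.

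The genes whose profile over the 6 mice was nearest to each of the 6 genes tested were found among 13141 others with a mean of at least 50 counts (13142 for Selp), by the Euclidean distance between log2 levels centred on the day-0 mean. For Vcam1 they were Smpdl3b (distance 0.47), the secreted phosphoprotein gene Spp1 (0.62) and Cd44 (0.71). For Icam1 they were Steap1 (0.29), the interferon-signalling factor Irf9 (0.29) and the NF-kappaB regulator Nfkbiz (0.30). For Ncam1 they were Igsf6 (0.30), Ly86 (0.37) and the cadherin gene Cdh3 (0.42), and for Selplg Cyth4 (0.27), the tubulin gene Tubb2b (0.28) and the NADPH oxidase subunit gene Ncf1 (0.29). Selp was farther from any gene, the nearest being the bradykinin receptor gene Bdkrb2 (0.93), the stress-response factor Atf3 (0.94) and Gc (1.38). For Icam2, Gm10244 (0.17), Ap5b1 (0.22) and Gm47950 (0.23) were nearest. All these profiles come from the same 6 libraries, and the distance counts the difference between the groups as well as that between mice of a group.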

How the data were processed

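Kidney mRNA of 3 day-0 and 3 day-21 mice was analysed from raw counts per gene that the authors deposited without normalization, with each mouse kept separate. The submitters' processing notes name TopHat and mm10. The counter, its strand setting and read filters are not given in the sources used here. All 55450 gene identifiers, versions included, matched GENCODE mouse release M21 (GRCm38), the source of symbols, positions and lengths. Each column was mapped by its label.

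In R 4.3.3, genes were filtered with edgeR 4.0.16 (filterByExpr, minimum count 10, minimum total 15), scaled by TMM and compared by its quasi-likelihood test, with p-values adjusted by Benjamini-Hochberg over 16592 genes. A call needed an adjusted p below 0.05 and a change of over 1.5-fold. Within-mouse ratios used a two-sided exact permutation test. Libraries held 10963849 to 14333311 counts, the biological coefficient of variation was 16.2%, and no 2 mice were duplicates. Same-numbered mice are different animals, so no replicate block was used. No batch is named in the labels.

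The genes, the gene lists and the tests were chosen with earlier results of these data known. Named genes are the 7, genes of the lists (each binding partner and the largest called change) and the 3 nearest profiles. Some listed genes are not reported here. DESeq2 1.42.0, limma-voom 3.58.1, other scalings, filters and thresholds, a replicate block and leaving out each mouse were alternatives. Level per kb over all annotated exons and without day-0 replicate 1 were added after seeing the data. Protein data were not analysed here.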

Additional observations from a re-analysis of the deposited data

How the results depend on the processing

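Of the 7 genes, Vcam1, Icam1, Ncam1 and Selplg kept their direction and their call under all 14 alternatives run, with log2 fold changes of 4.25 to 4.81, 1.5 to 2.09, 2.67 to 3.20 and 2.29 to 2.80. Icam2 turned to 0.12 (adjusted p = 0.704, edgeR) with library size alone, under which 81.7% of all calls were higher (5985 against 1338 lower) instead of 55.8%, and ranged from -0.49 to 0.12. Selp kept its call in 8 of 13 alternatives, and leaving out 1 mouse gave 1.70 to 5.30. It had no value under the filter of a mean of 50 counts, which it did not pass. The count of pathway genes called lower went from 4 to 1 with library size alone and to 1 when a call needed an adjusted p below 0.01 and over 2-fold. With the replicate number as a block, 5 of the genes were still called higher (3235 genes higher and 2523 lower in all), and no call of the 7 was changed, while the pathway counts stayed at 36 and 4, with 2 selectin-ligand genes called higher instead of 3 and 5 transmigration genes instead of 4. Correlations of same-numbered mice were -0.019, 0.165 and 0.090, and not every mouse correlated best with its own number. With 3 mice in each group, these values cannot show whether same-numbered samples share more than a number. Of the counts of single lists, 222 stayed within 1.5 times, among them those with 0 called under both settings, and 18 did not. Of the sets of 3 nearest genes, 11 kept at least 2 genes under the other setting and 1 did not. With the length of all annotated exons, the log2 ratio of Vcam1 to Icam1 level per kb went from -0.88 to -1.45 on day 0 and from 1.84 to 1.27 on day 21. Of the nearest genes of Vcam1, 1 of 3 remained when genes with a mean of at least 10 counts were admitted. Depth limits Sele, Selp, Madcam1, Fut7, St8sia2, Cd6, Tubb3, Itgam and Tnf, whose counts lie at or near the floor in most day-0 mice. Like Selp, several called genes passed the filter on low counts only through their day-21 mice, among them Itgam, St8sia2, Cd6, Cd3d, Tubb3, Gm11149 and Tnf. A difference of 3 mice against 3 in a single ratio cannot reach a p below 0.1.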
